A study of Homo sapiens with 16 samples.

Results

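The 30 genes described here encode enzymes and regulators of cholesterol and fatty acid synthesis. They were taken as a list of gene symbols, not by their measured values, and all 30 were found among the 27311 genes in the data. All 30 also passed the filter on low values (at least 2 libraries with 1 TPM or more), as did 14398 genes in all. By role, 7 genes act in the mevalonate pathway up to farnesyl diphosphate, 11 in the conversion of that product to sterols, 5 regulate the pathway, 1 (STARD4) carries sterols and 6 make and modify fatty acids.

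RNA was sequenced from 4 human cancer cell lines, each after 4 hours of an immune stimulus or untreated. THP-1, a monocytic line carrying dCas9-KRAB (a Cas9 that does not cut, joined to a repressor domain) in both its groups, received bacterial lipopolysaccharide (LPS) at 1 µg/ml or no stimulus. U937, a monocytic line, received LPS at 200 ng/ml or no stimulus. Jurkat, a T cell line, received anti-CD3 antibody (5 µg/ml) together with PMA, a phorbol ester (100 ng/ml), or no stimulus. BJAB, a B cell line, received anti-IgM (10 µg/ml) plus anti-CD40 antibody (4 µg/ml), or no stimulus. Each of the 8 groups held 2 libraries. The labels do not tell separate cultures from repeat libraries, so the p-values measure a spread that may be technical. The cells grew in medium with serum, an outside source of cholesterol and fatty acids.

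Cells make cholesterol from acetyl-CoA through mevalonate, farnesyl diphosphate, squalene and lanosterol. SREBF1 and SREBF2 encode membrane-bound transcription factors (SREBPs) that activate the genes of both pathways. When membrane sterols are low, the escort protein SCAP carries SREBPs from the endoplasmic reticulum to the Golgi, where they are cut and released. INSIG1 and INSIG2 hold SCAP back when sterols are high, and INSIG1 is itself an SREBP target. Activated T and B cells are known to draw on this pathway for new membrane as they grow and divide.

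Values are in TPM, a share of transcripts that corrects for gene length and sums to 1000000 in each library. Depth was 3317689 to 8432224 recovered reads per library. In untreated cells, the defining markers of each label were present: 10 monocytic markers summed to 7023 to 8700 TPM in THP-1 and U937 and to at most 493 TPM in the other lines, 10 T cell markers to 5258 to 5607 TPM in Jurkat and at most 69.1 TPM elsewhere, and 10 B cell markers to 5444 to 5790 TPM in BJAB and at most 206 TPM elsewhere. The stimuli were visible in early response genes: CXCL10 was at 30.3 and 24.3 TPM in THP-1 with LPS and 46.1 and 44.3 TPM in U937 with LPS, against 0 and 0 TPM in untreated THP-1 and 0 and 1.48 TPM in untreated U937. EGR1 was at 361 and 408 TPM in stimulated Jurkat and 309.8 and 296 TPM in stimulated BJAB, against 5.77 and 5.20 TPM in untreated Jurkat and 10.03 and 14.03 TPM in untreated BJAB.

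The first stimulated library of U937 and the first of BJAB stood apart from their partners. Over all tested genes, the log2 difference between the 2 libraries of a group had an SD of 0.89 in LPS-treated U937 and 0.96 in stimulated BJAB, against 0.35 to 0.46 in the other 6 groups. For the 30 genes the corresponding SDs were 1.05 and 1.45. In the first stimulated BJAB library the level followed base composition: its median log2 change from untreated was -2.56 for the 10 members in the fifth of genes richest in G and C, and 1.09 for the 5 members in the fifth poorest in them, while the second library gave -0.32 and 0.64. Over all tested genes these medians were -1.06 and 0.03 in the first library and -0.18 and 0.00 in the second. In the first U937 library with LPS the level followed transcript length instead, with a median of -1.63 for the 7 members in the fifth of genes with the longest transcripts and 0.23 for the 5 in the fifth with the shortest. Results are therefore given with all 16 libraries and again without these 2 ("without the 2 divergent libraries"), where the lone library left in a group is assumed to vary like the others.

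**Figure D1:**
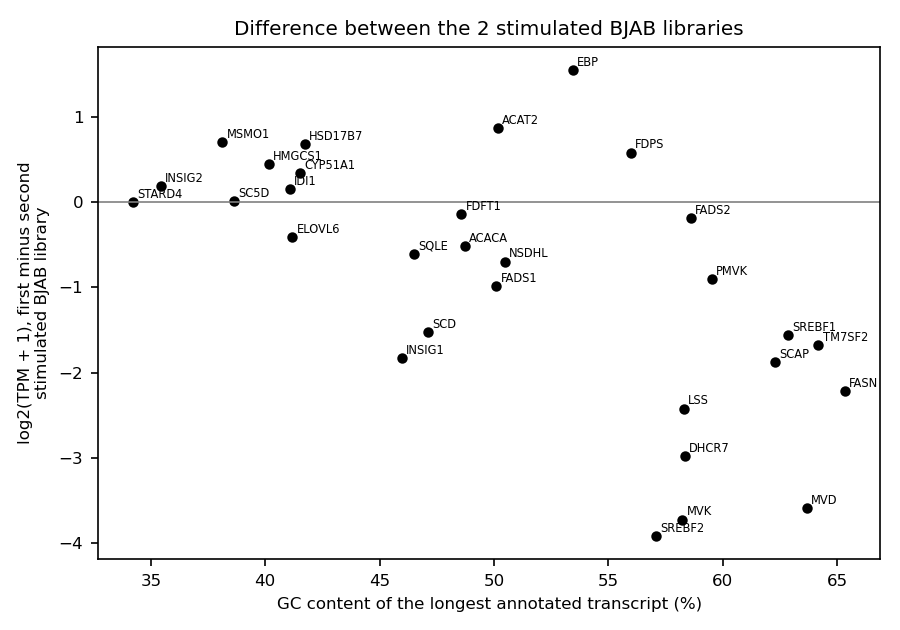
Difference between the first and the second stimulated BJAB library, in log2(TPM + 1), for each of the 30 genes (points), against the GC content of its longest annotated transcript in percent. MVD (63.7%, -3.59) and MVK (58.2%, -3.73) lie far below 0 and MSMO1 (38.1%, 0.71) above it, with exceptions such as INSIG1 (46.0%, -1.83) and FDPS (56.0%, 0.58); Pearson's r was -0.62 over the 30 genes.

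The promoters of 6 genes are printed: MSMO1, CYP51A1, HSD17B7 and INSIG1 for their response in BJAB, described below, and SREBF2 and FDPS as examples of the 4 members that hold the sterol element searched for (the others are HSD17B7 and FADS2). Each is the 250 bases before the gene's start in RefSeq (GRCh38.p14; the expression values were made on hg19, so the link is by gene symbol alone), read 5′ to 3′ on the gene's strand. Capitals mark TCACNCNAC, a form of the sterol regulatory element that SREBPs bind, and CCAAT, the box bound by NF-Y, a factor known to act with SREBPs, each on either strand. The windows are SREBF2 at chr22:41832855-41833104, HSD17B7 at chr1:162790452-162790701, FDPS at chr1:155308616-155308865, MSMO1 at chr4:165327419-165327668 and INSIG1 at chr7:155297628-155297877, all on the plus strand, and CYP51A1 at chr7:92134478-92134727 on the minus strand.
SREBF2: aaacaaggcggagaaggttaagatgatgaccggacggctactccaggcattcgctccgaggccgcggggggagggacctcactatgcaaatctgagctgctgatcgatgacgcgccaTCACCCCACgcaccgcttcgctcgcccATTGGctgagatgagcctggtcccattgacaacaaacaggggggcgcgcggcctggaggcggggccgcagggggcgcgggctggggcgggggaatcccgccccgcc
HSD17B7: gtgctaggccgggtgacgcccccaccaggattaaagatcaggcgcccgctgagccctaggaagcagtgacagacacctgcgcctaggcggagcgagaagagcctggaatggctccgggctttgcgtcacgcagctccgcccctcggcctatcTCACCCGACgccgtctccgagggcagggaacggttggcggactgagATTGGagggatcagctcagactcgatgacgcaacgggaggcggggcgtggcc
FDPS: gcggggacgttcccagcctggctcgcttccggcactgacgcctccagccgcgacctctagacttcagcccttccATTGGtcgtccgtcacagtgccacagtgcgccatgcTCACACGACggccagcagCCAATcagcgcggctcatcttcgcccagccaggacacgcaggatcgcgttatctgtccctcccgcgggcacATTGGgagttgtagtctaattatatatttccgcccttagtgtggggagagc
MSMO1: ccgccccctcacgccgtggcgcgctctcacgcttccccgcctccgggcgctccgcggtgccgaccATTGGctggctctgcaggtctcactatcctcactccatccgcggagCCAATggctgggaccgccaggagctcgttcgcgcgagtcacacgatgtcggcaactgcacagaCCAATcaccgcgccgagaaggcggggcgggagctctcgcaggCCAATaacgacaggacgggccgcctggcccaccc
INSIG1: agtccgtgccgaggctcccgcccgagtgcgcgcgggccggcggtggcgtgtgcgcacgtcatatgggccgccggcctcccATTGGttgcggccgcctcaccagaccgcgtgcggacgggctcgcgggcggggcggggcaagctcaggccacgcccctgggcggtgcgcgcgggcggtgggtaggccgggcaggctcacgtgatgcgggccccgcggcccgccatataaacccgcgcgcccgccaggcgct
CYP51A1: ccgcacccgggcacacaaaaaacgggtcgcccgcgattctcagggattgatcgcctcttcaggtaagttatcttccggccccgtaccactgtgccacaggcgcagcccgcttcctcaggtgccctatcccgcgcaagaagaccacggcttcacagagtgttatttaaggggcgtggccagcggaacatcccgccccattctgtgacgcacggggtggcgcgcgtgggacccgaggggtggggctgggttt

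Promoters of 26 of the 30 members were matched by symbol (not ACAT2, FASN, FDFT1 and SQLE). CCAAT was found on either strand in 18 of these 26 genes (69.2%), against 37% of all 27305 genes of the promoter table, counting a gene if any of its annotated starts held it. MSMO1 held 4 copies, beginning 185, 139, 76 and 34 bases before the start, and FDPS held 3. The strict element TCACNCCAC was in 1 member, SREBF2, where it began 133 bases before the start, and in 1.09% of all genes. TCACNCNAC, which includes it, was in 4 members (SREBF2, FDPS, HSD17B7 and FADS2; 15.4%) and 2.48% of all genes. Neither motif was found in the 250 bases before CYP51A1. A match is a description of letters in this window and was not tested against the expression values.

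The first comparison asks how the untreated lines differ in these genes. The 30 genes summed to 5289 and 4966 TPM in untreated Jurkat, 3431 and 3674 TPM in U937, 3420 and 3257 TPM in BJAB, with the lowest sums, 2288 and 2341 TPM, in THP-1. Jurkat had the highest mean of the 4 lines for 17 of the 30 genes and THP-1 the lowest for 12. Against the mean of the other 3 untreated lines, 14 members were higher and 1 lower in Jurkat, 4 higher and 5 lower in BJAB, 3 higher and 5 lower in U937, and 3 higher and 8 lower in THP-1 (limma, adjusted p under 0.05). Lines differ widely in general: in either direction 38% of all tested genes passed in Jurkat, 39.5% in BJAB, 35.9% in U937 and 34.9% in THP-1, so the 15 of 30 in Jurkat lie above the share of all genes, the 11 of 30 in THP-1 lie near it, and the 9 in BJAB and 8 in U937 lie below it. By direction, the shares higher and lower were 22% and 16% in Jurkat, 14.5% and 25% in BJAB, 15.1% and 20.8% in U937, and 17.6% and 17.3% in THP-1. A line can pass as higher without being the highest, because a low line pulls down the mean of the others. TM7SF2, ELOVL6 and HSD17B7 passed as higher in Jurkat with means of 78.7, 3.36 and 62.1 TPM, below 143, 25.0 and 64.1 TPM in BJAB. The other members that passed as higher in Jurkat had their highest mean there.

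**Figure D2:**
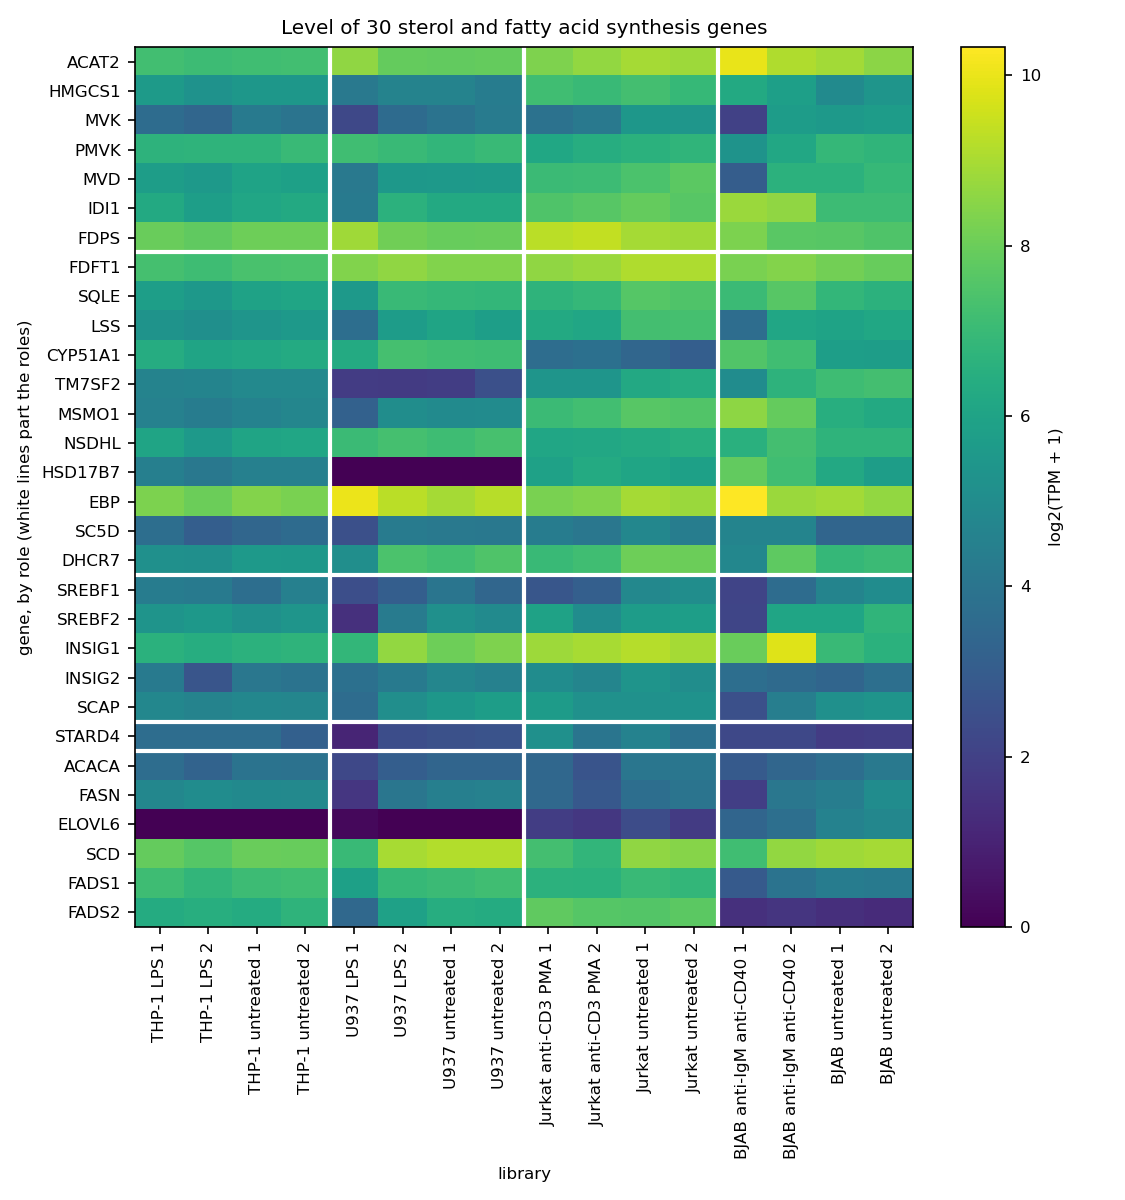
Level of the 30 genes (rows, grouped by role) in the 16 libraries (columns, stimulated before untreated within each line), as log2(TPM + 1). HSD17B7 is at 0 in all 4 U937 libraries, CYP51A1 is lower in Jurkat than in the other lines, and FADS1 and FADS2 are lower in BJAB.

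Among the mevalonate genes, HMGCS1, which makes HMG-CoA, was at 150.5 and 120 TPM in untreated Jurkat, against 29.98 and 40.9 TPM in BJAB, 43.6 and 43.3 TPM in THP-1 and 23.9 and 19.3 TPM in U937. The log2 level in Jurkat was 2.04 above the mean of the other lines (SE 0.22, adjusted p = 1.92e-05), and that in U937 was below it (-1.42, SE 0.22, adjusted p = 0.000401). FDPS, the farnesyl diphosphate synthase, was at 486 and 461 TPM in Jurkat and 199 and 177 TPM in BJAB, with 261.7 and 263 TPM in THP-1 and 241 and 253 TPM in U937. It passed as higher in Jurkat (log2 difference 1.04, SE 0.21, adjusted p = 0.00216) and as lower in BJAB (-0.73, SE 0.21, adjusted p = 0.0157). IDI1, the isopentenyl diphosphate isomerase, was higher in Jurkat at 233 and 202 TPM (log2 difference 1.25, SE 0.45, adjusted p = 0.049), with 133 and 136 TPM in BJAB and 67.7 to 77.2 TPM in the monocytic lines. ACAT2, a thiolase at the start of the pathway, passed in 3 lines (higher in Jurkat at 492 and 455 TPM and in BJAB at 470.1 and 369 TPM, lower in THP-1 at 144 and 147 TPM), but its exons overlap those of SOD2 and TCP1 on the other strand, which had medians of 25.5 and 904 TPM. Libraries of this kind do not keep strand, so reads from the overlap cannot be told apart.

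Several sterol genes differed widely between lines. HSD17B7, a ketosteroid reductase needed to remove the C4 methyl groups, was listed at 0 in both untreated and both LPS-treated U937 libraries. It stood at 74.9 and 53.4 TPM in untreated BJAB, 67.0 and 57.2 TPM in Jurkat and 21.6 and 21.7 TPM in THP-1. Against a floor of 3 reads per untreated U937 library (0.716 TPM on average), U937 was at least 30.2-fold lower than THP-1 and at least 86.7-fold lower than Jurkat (adjusted p = 2.04e-08 for U937 against the other lines). The files are named as coming from unique alignments, and HSD17B7P2, a near copy, followed HSD17B7: it was at 0 TPM in all 4 U937 libraries and at 20.8% to 31.2% of the HSD17B7 level in the other 12. MSMO1 and NSDHL, which also act in C4 demethylation, were present in U937, at 29.7 and 30.3 TPM and at 137 and 158 TPM. CYP51A1, which acts earlier in the pathway, was at 142 and 140 TPM.

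TM7SF2, which encodes a C14 sterol reductase, was also low in U937, at 2.67 and 4.69 TPM, against 137 and 149 TPM in BJAB, 74.4 and 83.1 TPM in Jurkat and 28.3 and 27.9 TPM in THP-1. Its log2 level in U937 was below the mean of the other lines (-3.92, SE 0.35, adjusted p = 4.64e-06), and it was higher in BJAB (2.71, SE 0.35, adjusted p = 6.1e-05) and Jurkat (1.57, SE 0.35, adjusted p = 0.00374). CYP51A1, the lanosterol demethylase, ran the other way. It was at 9.73 and 7.60 TPM in Jurkat, backed by 115 and 72 reads, against 142 and 140 TPM in U937, 72.6 and 77.9 TPM in THP-1, and 53.8 and 52.4 TPM for BJAB. The mean in Jurkat was 6.12-fold below that in BJAB, the next line up, and the log2 difference from the other lines was -3.12 (SE 0.25, adjusted p = 1.37e-06). CYP51A1 has 3 annotated pseudogenes that are not among the genes in the data, and the effect of reads shared with them was not tested.

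MSMO1, the C4 methyl sterol oxidase, was at 198 and 184 TPM in Jurkat, against 88.8 and 75.7 TPM in BJAB, 29.7 and 30.3 TPM in U937 and 22.6 and 25.6 TPM in THP-1. Jurkat lay above the other lines (log2 difference 2.26, SE 0.38, adjusted p = 0.000621), and U937 and THP-1 below (-1.25, adjusted p = 0.0248, and -1.66, adjusted p = 0.00539). FDFT1, the squalene synthase, was at 555 and 527 TPM in Jurkat and 164 and 171 TPM in THP-1, the ends of the order (log2 differences 1.15, adjusted p = 4.72e-05, and -1.10, adjusted p = 7.22e-05). SQLE, which oxidises squalene and is a control point of the pathway, had the same ends: 196 and 178 TPM in Jurkat (1.02, adjusted p = 0.0225) and 61.6 and 66.0 TPM in THP-1 (-1.03, adjusted p = 0.023). DHCR7, the last enzyme of one branch, was lower in THP-1 at 45.8 and 44.9 TPM (log2 difference -1.91, adjusted p = 0.0452), against 266 and 258 TPM in Jurkat, 145 and 179 TPM in U937 and 116 and 129 TPM in BJAB. NSDHL passed as higher in U937 (0.82, adjusted p = 0.0103) and lower in THP-1 (-0.71, adjusted p = 0.0225). EBP, a sterol isomerase, was among the 5 most abundant members in every line, with means of 325 to 547 TPM. With all libraries it passed in none, and without the 2 divergent libraries it passed as lower in THP-1 and higher in U937.

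**Figure D3:**
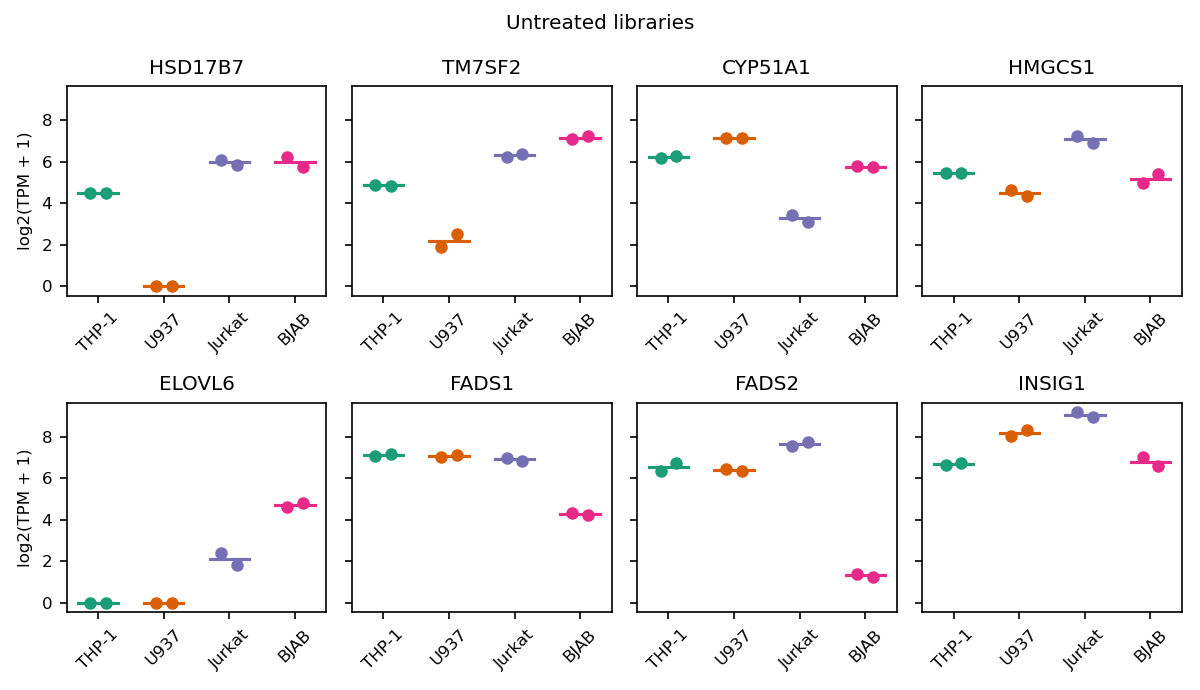
Level of 8 genes in the untreated libraries of each line, as log2(TPM + 1); points are the 2 libraries of a line and the bar is their mean. HSD17B7 lies at 0 in U937 and ELOVL6 in THP-1 and U937, CYP51A1 is lowest in Jurkat, FADS1 and FADS2 are lowest in BJAB, and HMGCS1 and INSIG1 are highest in Jurkat.

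Of the regulators, INSIG1 was at 587 and 494 TPM in Jurkat, 267 and 322 TPM in U937, 129 and 94.7 TPM in BJAB and 98.9 and 105 TPM in THP-1. It was higher in Jurkat (log2 difference 1.85, SE 0.47, adjusted p = 0.00902) and lower in THP-1 (-1.34, SE 0.47, adjusted p = 0.047), while the libraries of BJAB and THP-1 overlapped. INSIG2, the second retention protein, was higher in Jurkat at 39.7 and 32.8 TPM (1.14, adjusted p = 0.0184) and lower in BJAB at 9.24 and 12.8 TPM (-1.05, adjusted p = 0.026). With all libraries in the fit, SREBF1, SREBF2 and SCAP passed in no line. SREBF1 ranged over the 8 untreated libraries from 9.68 to 32.7 TPM, SREBF2 from 30.1 to 107.5 TPM and SCAP from 25.7 to 53.1 TPM. Without the 2 divergent libraries, SREBF1 passed in Jurkat and U937, SREBF2 in BJAB and U937, and SCAP in THP-1 and U937. STARD4, a carrier that moves cholesterol between membranes, was higher in Jurkat at 22.7 and 13.6 TPM (1.58, adjusted p = 0.00594) and lower in BJAB at 2.58 and 2.82 TPM (-1.53, adjusted p = 0.00641).

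Among the fatty acid genes, FADS1, FADS2 and ELOVL6 differed most between the untreated lines. FADS2, the delta-6 desaturase, was at 1.60 and 1.39 TPM (18 and 17 reads) in untreated BJAB, against 189 and 214 TPM in Jurkat, 80.8 and 105 TPM in THP-1 and 85.6 and 81.9 TPM in U937. The mean in BJAB was 56.1-fold below that in U937, the next line, and the log2 difference from the other lines was -5.55 (SE 0.46, adjusted p = 1.49e-06). FADS1, the delta-5 desaturase of the same chain of reactions and its neighbour on the chromosome, was at 19.1 and 17.7 TPM in BJAB against 114 to 142 TPM in the other lines (-2.76, SE 0.30, adjusted p = 1.44e-05). The exons of FADS1 and FADS2 overlap on opposite strands, so a few reads of one may be counted for the other. FADS2 was higher in Jurkat (2.90, SE 0.46, adjusted p = 0.00034) and THP-1 (1.41, adjusted p = 0.0315), and FADS1 in THP-1 (1.02, adjusted p = 0.0193) and U937 (0.99, adjusted p = 0.0226). In each of these differences the mean of the other lines includes the low BJAB value. The mean of FADS2 in Jurkat was 2.17-fold above that in THP-1, the next line. The libraries of THP-1 and U937 overlapped in both genes, and FADS1 had a mean of 120 TPM in Jurkat.

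ELOVL6, which lengthens 16-carbon fatty acids, showed the reverse. It was at 23.2 and 26.9 TPM in BJAB and 4.27 and 2.46 TPM in Jurkat, and was listed at 0 in both untreated libraries of THP-1 and of U937. With a floor of 3 reads per library, BJAB was at least 101-fold higher than THP-1 and at least 67.8-fold higher than U937 (adjusted p = 1.59e-08 for BJAB against the other lines). Jurkat also passed as higher (adjusted p = 0.0447), but its difference had the other sign with a pseudocount of 5. SCD, the stearoyl-CoA desaturase, was at 240 to 569.5 TPM in the 8 untreated libraries. With all libraries, SCD, FASN (12.5 to 31.5 TPM) and ACACA (9.32 to 16.98 TPM), the enzymes of the main chain of synthesis, passed in no line. Once the 2 divergent libraries were left out, SCD passed in THP-1, U937 and BJAB, FASN in THP-1 and Jurkat, and ACACA in U937. Without the 2 divergent libraries, more members passed: 23 in Jurkat, 19 in BJAB, 23 in U937 and 21 in THP-1. Of all tested genes, 59.2%, 59.7%, 57.8% and 56% passed in these lines. Both divergent libraries are stimulated ones, so the untreated values and differences stay as they are and only the pooled spread changes. Every member that passed with all libraries passed again, which is therefore no separate evidence.

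The next comparison is the response of BJAB to stimulation through IgM and CD40, in which several sterol genes were higher. With all libraries, MSMO1, CYP51A1 and HSD17B7 rose, and SREBF1, ELOVL6 and PMVK fell, 6 of 30 members against 6.4% of all tested genes in either direction (1.63% higher and 4.76% lower). Both stimulated libraries lay above both untreated ones for 13 members, 10 of them among the 18 mevalonate and sterol genes, and below for 11, where 14.2% and 32.9% of all tested genes did so. Over the 30 genes the median log2 change was 0.13 (all tested genes -0.14), over the 11 sterol genes 0.64 and over the 6 fatty acid genes -0.92. The medians differed between the divergent first and the second stimulated library. They were 0.34 and 0.81 for the sterol genes, -1.34 and -0.44 for the fatty acid genes, and -0.21 and -0.04 over all tested genes.

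MSMO1 was at 386 and 236 TPM in stimulated BJAB, against 88.8 and 75.7 TPM in untreated BJAB. It rose by 1.87 on the log2 scale (SE 0.47, adjusted p = 0.0389). CYP51A1 was at 183 and 144 TPM in stimulated cells and 53.8 and 52.4 TPM in untreated cells, and HSD17B7 at 227 and 141 TPM and 74.9 and 53.4 TPM. They rose by 1.59 (SE 0.31, adjusted p = 0.0107) and 1.49 (SE 0.29, adjusted p = 0.0108), and HSD17B7P2, the near copy of HSD17B7, was at 54.3 and 31.9 TPM in stimulated BJAB and 17.3 and 14.6 TPM in untreated BJAB. The 3 genes act in the reactions that strip methyl groups from lanosterol. For each gene the stimulated libraries lay above the untreated ones without overlap.

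INSIG1 had the largest positive log2 change of any member, at 252 and 896 TPM in stimulated BJAB against 129 and 94.7 TPM in untreated BJAB. Its log2 change of 2.10 (SE 0.58) missed the threshold with all libraries (adjusted p = 0.0559) and passed without the 2 divergent libraries, at 3.01 (SE 0.20, adjusted p = 2.47e-05). IDI1 was at 443 and 397 TPM against 133 and 136 TPM, 3.13-fold on the means, with adjusted p = 0.106 and, without the divergent libraries, 0.001. SC5D, a late desaturase, was at 24.6 and 24.3 TPM in stimulated BJAB and 9.31 and 9.44 TPM in untreated BJAB (log2 change 1.29, adjusted p = 0.116 and, without the divergent libraries, 0.0211). These genes differed little between the 2 stimulated libraries or, for INSIG1, were higher in the second.

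Members rich in G and C depended on which stimulated library was read. DHCR7 was at 26.4 and 216 TPM in stimulated BJAB, against 116 and 129 TPM in untreated BJAB: its change was -0.68 with all libraries (adjusted p = 0.705) and 0.81 without the divergent ones (SE 0.15, adjusted p = 0.00876). MVK, the mevalonate kinase, was at 2.96 and 51.4 TPM against 45.9 and 51.9 TPM, MVD, the mevalonate diphosphate decarboxylase, at 7.17 and 97.4 TPM against 97.7 and 121 TPM, and LSS, the lanosterol synthase, at 12.0 and 68.6 TPM against 63.0 and 70.1 TPM. Each had 1 stimulated library far below and 1 close to the untreated range, and none of the 3 passed with or without the divergent libraries. EBP showed the opposite, at 1288 and 439 TPM in stimulated cells and 477 and 398 TPM in untreated cells.

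**Figure D4:**
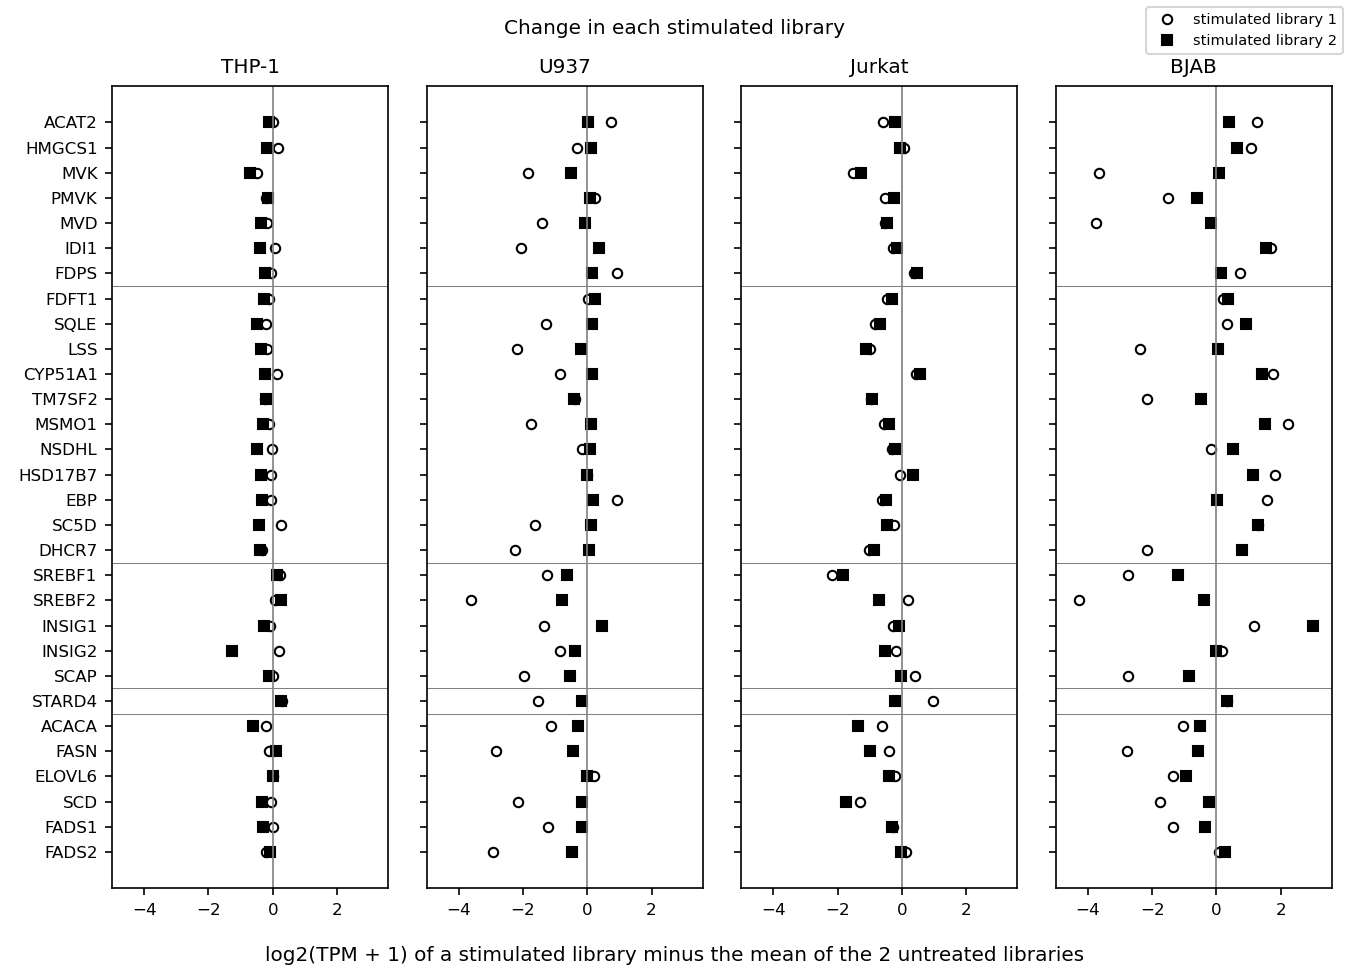
Change of each member in each stimulated library, as log2(TPM + 1) minus the mean of the 2 untreated libraries of the line; open circles are the first and filled squares the second stimulated library, and horizontal lines part the roles. In BJAB both libraries lie right of 0 for IDI1, CYP51A1, MSMO1, HSD17B7, SC5D and INSIG1. In Jurkat both lie left of 0 for most of the 30 genes, and in U937 the first library lies far left of the second for most genes.

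SREBF1 was at 3.29 and 11.6 TPM in stimulated BJAB and 24.4 and 31.9 TPM in untreated BJAB. It fell by 1.97 with all libraries (SE 0.47, adjusted p = 0.0312), and the change was -1.20 without the divergent ones (adjusted p = 0.0663). SREBF2 was at 3.41 and 65.6 TPM against 67.1 and 107.5 TPM (log2 change -2.33, adjusted p = 0.211, and -0.37, adjusted p = 0.649, without the divergent libraries). SCAP was at 4.80 and 20.3 TPM against 35.7 and 39.7 TPM (-1.80, adjusted p = 0.077), and fell by 0.86 without the divergent libraries (adjusted p = 0.0267). INSIG2 was at 12.5 and 10.8 TPM against 9.24 and 12.8 TPM, with overlapping groups (log2 change 0.08, adjusted p = 1). STARD4 was at 3.68 and 3.67 TPM in stimulated BJAB and 2.58 and 2.82 TPM in untreated BJAB and did not pass.

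The fatty acid genes of BJAB lay below their untreated levels except FADS2, which was at 1.66 and 2.03 TPM against 1.60 and 1.39 TPM. ELOVL6 was at 9.29 and 12.6 TPM against 23.2 and 26.9 TPM and fell by 1.13 (SE 0.23, adjusted p = 0.0143; -0.93, adjusted p = 0.0581 without the divergent libraries). FASN, the fatty acid synthase, was at 2.73 and 16.3 TPM against 19.6 and 31.5 TPM (-1.69, adjusted p = 0.196), and SCD at 141 and 407 TPM against 469.8 and 486 TPM. PMVK, the phosphomevalonate kinase, was at 38.4 and 72.7 TPM against 116 and 107 TPM and fell by 1.06 (SE 0.28, adjusted p = 0.0469; -0.60, adjusted p = 0.0528 without the divergent libraries).

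Without the 2 divergent libraries, 9 members passed in BJAB, 8 higher (INSIG1, IDI1, MSMO1, CYP51A1, SC5D, HSD17B7, SQLE and DHCR7) and SCAP lower, against 9.14% of all tested genes (3.25% higher and 5.89% lower); MSMO1, CYP51A1 and HSD17B7 passed in both fits, and none of the 3 falls did. With the BJAB libraries alone in the fit no member passed. In the fit of all libraries, the count rose without the second stimulated library, which leaves only the divergent one. It fell when any other BJAB library was left out instead. The 3 members that rose in both fits have GC contents of 38.1% to 41.7%, and the part of base composition in their change was not tested. In the second library, where the members' medians were also higher at low GC content (0.64 against -0.32), they were 2.20-fold to 2.87-fold above the untreated mean. With a pseudocount of 0.1, MSMO1 (adjusted p = 0.0578), PMVK (0.0518) and ELOVL6 (0.149) no longer passed. MSMO1 also missed the threshold with no filter on low values (adjusted p = 0.052). PMVK missed it with no filter, median-of-ratios scaling and voom (adjusted p = 0.0508, 0.177 and 0.0533). ELOVL6 missed it with quantile normalization and voom (adjusted p = 0.139 and 0.0898).

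In stimulated Jurkat cells most members had lower levels than in untreated cells, though few passed the test. Both stimulated libraries lay below both untreated ones for 20 of the 30 genes, where 28.7% of all tested genes did, and above for 2 (FDPS and CYP51A1), where 21% did. The median log2 change of the 30 genes was -0.37, against -0.03 over all tested genes. The test over all libraries passed 1 member, SREBF1, where 4.87% of all tested genes passed, 3.02% higher and 1.85% lower. In bulk libraries, less RNA per cell and fewer cells expressing a gene cannot be told apart.

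SREBF1 was at 5.80 and 7.76 TPM in stimulated Jurkat and 27.5 and 32.7 TPM in untreated Jurkat. It fell by 2.00 on the log2 scale (SE 0.47, adjusted p = 0.0311), a 4.44-fold difference of the means, and did not pass with a pseudocount of 0.1 (adjusted p = 0.0646). SCD was at 150 and 111 TPM against 396 and 348 TPM (log2 change -1.52, SE 0.56, adjusted p = 0.225), and MVK at 13.98 and 17.02 TPM against 42.7 and 41.8 TPM (-1.40, SE 0.87, adjusted p = 0.644). In both genes the groups were far apart, and the wide SE comes from a spread pooled over all lines, which the 2 divergent libraries of U937 and BJAB enlarge. The exons of SREBF1 overlap those of RAI1 on the other strand, which had a median of 6.19 TPM over all libraries. Those of MVK overlap MMAB in the same way (median 34.2 TPM), and reads from these overlaps cannot be told apart.

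Without those 2 libraries the Jurkat values stay as they are and 13 members passed, 12 of them lower, against 13.6% of all tested genes in either direction, 6.76% higher and 6.83% lower. SCD (SE 0.15, adjusted p = 9.7e-05), MVK (SE 0.18, adjusted p = 0.000566) and SREBF1 (SE 0.29, adjusted p = 0.00135) fell most. LSS was at 76.2 and 68.6 TPM against 149 and 153 TPM (log2 change -1.05, SE 0.13, adjusted p = 0.000506), and DHCR7 at 127 and 144 TPM against 266 and 258 TPM (-0.94, SE 0.12, adjusted p = 0.000631). TM7SF2 was at 40.4 and 41.2 TPM against 74.4 and 83.1 TPM (-0.93, adjusted p = 0.00853), SQLE at 104 and 117 TPM against 196 and 178 TPM (-0.75, adjusted p = 0.00378), and ACACA, the acetyl-CoA carboxylase, at 9.86 and 5.42 TPM against 15.8 and 15.5 TPM (-0.99, adjusted p = 0.0302). FDFT1, MSMO1, EBP and MVD also fell, by 0.39 to 0.55.

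FDPS was the 1 member that rose in that fit, at 616 and 663 TPM in stimulated Jurkat and 486 and 461 TPM in untreated Jurkat (log2 change 0.43, SE 0.10, adjusted p = 0.017). CYP51A1, the member that stood low in untreated Jurkat, was at 11.9 and 13.1 TPM in stimulated cells against 9.73 and 7.60 TPM and did not pass. INSIG1 was at 448 and 503 TPM against 587 and 494 TPM, with overlapping groups (-0.18, adjusted p = 1). SREBF2 at 61.4 and 31.7 TPM against 51.1 and 55.0 TPM, SCAP at 49.4 and 36.3 TPM against 36.7 and 37.4 TPM, and INSIG2 at 31.9 and 24.7 TPM against 39.7 and 32.8 TPM did not pass in either fit. With the Jurkat libraries alone in the fit, more members passed than with all libraries. In the fit of all libraries, SREBF1 no longer passed when any 1 of the 4 Jurkat libraries was left out.

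The responses of Jurkat and BJAB were compared directly; both the lines and the ligands differ. With all libraries no member differed past the threshold, while 13 had an unadjusted p under 0.05, limma voom on recovered reads gave 1 and 5.24% of all tested genes passed. The largest differences, Jurkat minus BJAB on the log2 scale, were -2.33 for MSMO1 (SE 0.66, adjusted p = 0.0743), -2.28 for INSIG1 (SE 0.82, adjusted p = 0.17), 2.07 for SREBF2 (SE 1.51, adjusted p = 0.538), 1.99 for SCAP (adjusted p = 0.212), -1.84 for IDI1 (adjusted p = 0.268) and -1.66 for SC5D (adjusted p = 0.212). SREBF1, which fell in both lines, differed by -0.03 (SE 0.66, adjusted p = 1; -0.81, adjusted p = 0.351 without the divergent libraries), and INSIG2 by -0.43 (adjusted p = 0.767).

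Without the 2 divergent libraries, 12 members differed, 11 of them lower in the Jurkat response. In that fit 8.61% of all tested genes differed in either direction (5.6% higher and 3.01% lower). INSIG1 differed by -3.19 (SE 0.25, adjusted p = 8.39e-05), MSMO1 by -1.98 (SE 0.20, adjusted p = 0.000339), DHCR7 by -1.76 (SE 0.19, adjusted p = 0.000477), IDI1 by -1.76 (SE 0.24, adjusted p = 0.00171) and SQLE by -1.69 (SE 0.20, adjusted p = 0.00085). SC5D, MVK, SCD, LSS, CYP51A1 and FDFT1 differed by -1.65 to -0.75, and SCAP by 1.05 (adjusted p = 0.035). These values rest on a single stimulated BJAB library, so they show how far that library lies from the others and not the spread of BJAB cultures. Leaving out the second stimulated BJAB library instead keeps only the divergent first one in that group. The count of members in such a fit is therefore no separate evidence beside the 12.

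LPS gave no member past the threshold in either monocytic line. In THP-1, limma passed 0 of 30 with all libraries, none had an unadjusted p under 0.05, voom gave 0, and 0.167% of all tested genes passed; without the divergent libraries it was 0 of 30 and 0.258%. The changes ranged from -0.60 to 0.27 with a median of -0.18 (all tested genes -0.06), and both LPS libraries lay below both untreated ones for 14 members and above for 1, where 22.5% and 12.2% of all tested genes did. MVK was at 11.46 and 9.58 TPM in LPS-treated THP-1 and 18.2 and 14.9 TPM in untreated THP-1 (log2 change -0.60, SE 0.87, adjusted p = 1), and 0.305 adjusted without the divergent libraries.

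ACACA was at 12.0 and 8.85 TPM with LPS and 14.11 and 14.05 TPM without, DHCR7 at 35.7 and 34.2 TPM and 45.8 and 44.9 TPM, SQLE at 54.6 and 44.8 TPM and 61.6 and 66.0 TPM, and MVD at 53.0 and 46.1 TPM and 62.5 and 58.0 TPM. All 4 had an adjusted p of 1 and did not overlap between groups. INSIG2 was at 17.6 and 5.65 TPM with LPS, where its 2 libraries straddled the untreated 15.9 and 14.4 TPM. SREBF1 at 19.4 and 18.0 TPM against 12.2 and 21.7 TPM, SREBF2 at 39.8 and 44.9 TPM against 34.9 and 40.9 TPM, INSIG1 at 95.4 and 85.1 TPM against 98.9 and 105 TPM, and SCAP at 26.5 and 23.9 TPM against 26.4 and 25.7 TPM had changes of -0.18 to 0.19. The second LPS library of THP-1 was the shallowest of all, and its median change over the members was -0.29, against -0.06 in the first.

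In U937, limma passed 0 of 30 with all libraries, 2 had an unadjusted p under 0.05, and voom gave 0. Of all tested genes 0.0278% passed. Without the divergent library again no member passed. Some members passed without the second LPS library, a fit that keeps only the divergent one. Both LPS libraries lay below both untreated ones for 14 members and above for 3, where 30.7% and 11.2% of all tested genes did. The median change of the 30 genes was -0.71 with all libraries and 0.00 without the divergent first one. SREBF2 was at 1.73 and 18.5 TPM in LPS-treated U937 and 35.0 and 30.1 TPM in untreated U937 (log2 change -2.20, adjusted p = 0.334, and -0.78, adjusted p = 0.792, without the divergent library). FADS2 at 10.2 and 59.3 TPM against 85.6 and 81.9 TPM, FASN at 2.14 and 15.7 TPM against 21.1 and 22.0 TPM, SCAP at 11.54 and 33.0 TPM against 43.1 and 53.1 TPM, and LSS at 12.3 and 51.8 TPM against 65.2 and 55.2 TPM shared this form, with the first LPS library far below the second. In the second LPS library SREBF2, SCAP and SREBF1 (7.46 TPM against 15.2 and 9.68 TPM) also lay below both untreated libraries, and INSIG1, at 402.5 TPM, above its untreated 267 and 322 TPM; none of these passed. By limma the LPS responses of THP-1 and U937 differed in no member, with 0 at an unadjusted p under 0.05 and 0 by voom, where 0.0486% of all tested genes differed; without the divergent libraries the count was also 0 (0.0279% of all tested genes), and without the second LPS library of U937 it was 6. The widest gaps, THP-1 minus U937, were 2.36 for SREBF2 (SE 1.51), 1.65 for FASN (SE 1.06) and 1.57 for FADS2 (SE 0.79), each with an adjusted p of 0.746.

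A further 5 lists of the pathway (LXR and sterol efflux, SREBP processing, sterol uptake, fatty acid supply, non-sterol isoprenoids), with 13, 13, 11, 25 and 11 genes tested, were read in the same fits. In BJAB 1 gene of the first, 1 of the second and 2 of the fatty acid list passed, where 6.4% of all tested genes did. Counts this small lie close to that share in lists of 13, 13 and 25 genes. LPIN1, which makes diacylglycerol, rose (37.9 and 58.3 TPM stimulated, 9.48 and 10.7 TPM untreated; log2 change 2.11, adjusted p = 0.0139), as did MYLIP, a ubiquitin ligase and LXR target (1.54, adjusted p = 0.0271). SYVN1, a ubiquitin ligase of the endoplasmic reticulum (19.1 and 55.4 TPM against 142 and 175 TPM; -2.24, adjusted p = 0.0238), and DGAT2, a triglyceride synthase (-1.50, adjusted p = 0.0473), fell. In Jurkat 1 gene passed, where 4.87% of all tested genes did. ABCG1, a sterol exporter and LXR target, fell (6.89 and 11.3 TPM stimulated, 20.2 and 36.0 TPM untreated; -1.51, adjusted p = 0.0453). The lists of sterol uptake and of non-sterol isoprenoids had no gene past the threshold in any of the 4 stimulations, and with LPS no gene of any of the 5 lists passed. Without the divergent libraries the 5 lists in the same order had 3, 3, 3, 4 and 0 genes past the threshold in Jurkat and 2, 2, 0, 4 and 0 in BJAB, where 13.6% and 9.14% of all tested genes passed.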

How the data were processed

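RNA sequencing libraries were made with SmartSeq2, which primes on the poly(A) tail, per the labels' protocols. Per the submitters' processing notes, reads were aligned with TopHat2 to hg19; versions, read counter and annotation: not given in the sources used here. Each of the 16 files deposited by the authors holds 1 TPM value per gene, and is named as a unique alignment. Reads shared with close copies may thus be lost.

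Whole reads were recovered from the steps between TPM values at a tolerance of 0.001 for 17860 of 19092 genes above 0 (93.5%), which gave the depth. The 30 members and all other lists were chosen with earlier results of these data known. A gene of the LXR list is not reported here. limma 3.58.1 (R 4.3.3) with a mean-variance trend modelled log2(TPM + 1) in the 16 libraries as 8 groups, for the 14398 genes that reached 1 TPM in 2 or more libraries. Tests were two-sided, adjusted by Benjamini-Hochberg over all tested genes, with a threshold of 0.05; residual degrees of freedom were 8 and the prior 3.18. On this scale the change of low genes is understated. The procedure was run on simulated data for the Jurkat response only. That simulation held no divergent library, so it cannot show how the fit behaves with them. Contrasts were stimulated minus untreated in each line, differences between these, and each untreated line minus the mean of the other 3.

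Values per library are given for members past the threshold (up to 12 per comparison), the largest changes not past it (up to 6, if the higher group reached 5 TPM) and the regulators; others are given by count and range, and some members that passed without the 2 divergent libraries were named after their values were seen. GC content is that of the longest GENCODE v29 transcript of a symbol. Promoters are RefSeq windows of 250 bases, searched on both strands. Alternatives were pseudocounts of 0.1 and 5, no filter and a TPM minimum of 5, 2 scalings, no trend, a replicate block, the compared lines only, voom on recovered reads, leaving out each library, and leaving out the 2 divergent libraries. Same-numbered libraries did not deviate together in every line, so the numbers were not used as pairs. Depth floors are 3 reads per library and cover counting error only.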

Additional observations from a re-analysis of the deposited data

How the results depend on the processing

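Counts of members past the threshold depended on the fit. They are given here without the share of all tested genes in each fit, so a change in them is not by itself a result about the members. In the Jurkat response (1 member) the count was 0 with a pseudocount of 0.1 and with the replicate block, 2 with median-of-ratios scaling or quantile normalization, 8 with the compared line only, 13 without the 2 divergent libraries and 0 to 0 leaving out one library. In the BJAB response (6) it was 3 with a pseudocount of 0.1 and with the replicate block, 11 and 10 under the 2 scalings, 0 with the compared line only and 0 to 19 leaving out one library. The U937 response and the LPS difference (0 each) reached 15 and 6 with one library left out, from 0. The difference of Jurkat and BJAB (0) was 2 with a pseudocount of 5, 5 and 3 under the scalings, 2 with the compared lines only, 12 without the divergent libraries, 1 with voom and 0 to 10 leaving out one library. Untreated counts with the compared libraries only were 22 (THP-1, 11 with all), 24 (U937, 8), 24 (Jurkat, 15) and 19 (BJAB, 9), and without the divergent libraries 21, 23, 23 and 19; leaving out one library gave 3 to 8, 5 to 8, 8 to 14 and 5 to 8. Reversed signs, among values past the threshold with all libraries or in the alternative, were as follows. Without the divergent libraries they were DHCR7 in BJAB (0.81) and the Jurkat minus BJAB differences of MVK (-1.47) and LSS (-1.10). With a pseudocount of 5 it was ELOVL6 in untreated Jurkat (-0.13). Members short of the threshold in both fits also changed sign, such as IDI1 in U937 (-0.85 with all libraries, 0.37 without the divergent ones) and MVK in BJAB (-1.79 and 0.07). The replicate block, whose numbers did not pair the libraries, left SREBF1 in Jurkat and MSMO1, SREBF1 and PMVK in BJAB short of the threshold and changed no other count of a response or response difference. The causes were not tested. Of the values of single genes under all alternatives, 4723 kept their side of the threshold. Those that passed also kept their direction, while direction was not checked for those short of the threshold in both fits. Depth limits ELOVL6 and HSD17B7 where they are at 0.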

Other observations

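Untreated BJAB was low for other genes of fatty acid supply and use besides FADS1 and FADS2. Of 25 such genes, 12 were lower and 0 higher in BJAB than in the mean of the other lines, where 25% of all tested genes were lower. CPT1A, which admits fatty acids to mitochondria, was at 0.374 and 0.115 TPM in untreated BJAB, against 21.2 to 35.5 TPM in the other lines (log2 difference -4.54, adjusted p = 2.31e-07). ACSS2, which makes acetyl-CoA from acetate, was listed at 0 in both untreated BJAB libraries, against 24.4 to 41.6 TPM in the monocytic lines and 6.10 and 3.59 TPM in Jurkat. SCD5, a second stearoyl-CoA desaturase, was at 0.0796 and 0.366 TPM in BJAB and 31.5 and 28.8 TPM in Jurkat.

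Against the mean of the other untreated lines, THP-1 had 10 higher and 2 lower of the 25 genes of fatty acid supply and use, 7 higher and 1 lower of 13 in LXR and sterol efflux, and 2 higher and 0 lower of 11 in sterol uptake, where 17.6% of all tested genes were higher and 17.3% lower; the genes named next were chosen after their values were seen. CD36, a fatty acid receptor, was at 49.9 and 42.3 TPM in untreated THP-1, against 10.1 and 9.85 TPM in U937 and at most 0.0630 TPM in the lymphoid lines. VLDLR, a lipoprotein receptor, was at 50.8 and 47.9 TPM in THP-1 against 5.67 and 6.72 TPM in U937. ME1, the cytosolic malic enzyme that supplies NADPH, was at 30.9 and 34.5 TPM in THP-1 and listed at 0 in the 6 other untreated libraries. ABCA1, a sterol exporter, was at 6.62 and 5.84 TPM in THP-1 and at 0.557 TPM or less elsewhere, while ABCG1 was at 20.2 and 36.0 TPM in Jurkat and at 1.22 TPM or less in the other lines.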
